A study of Mus musculus with 16 samples.

Results

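Insulin-like growth factor 1 (Igf1), its receptor (Igf1r) and 6 insulin-like growth factor-binding proteins (Igfbp2, Igfbp3, Igfbp4, Igfbp5, Igfbp6 and Igfbp7) were followed in β cells of old and young mice. They were taken by gene symbol from the deposited count table, which held all 8 among 22869 genes. The cells were sorted live by flow cytometry from isolated islets. RNA came from mice of the strain label MIP-GFP/Bl6, which carry green fluorescent protein under control of the insulin promoter, and chromatin and bisulfite samples carried the label C57Bl6. The old RNA pools were 15, 16 and 17 months old and the young ones 4 to 6 weeks, with 5 to 10 mice in a pool, and 3 old and 2 young libraries were analysed here. The old chromatin and bisulfite pools were labelled 16 to 18 months and the young ones 4 to 6 weeks, with 1 sample per mark and age, and H3K27ac was held for young cells only. For the old bisulfite pool the design text gives 18 to 22 months instead.

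Insulin-like growth factors are secreted peptides related to insulin that act through a receptor tyrosine kinase, from which the signal runs through receptor substrates, phosphatidylinositol 3-kinase and Akt. Binding proteins hold the factors outside the cell, lengthen their life in the circulation, keep them from the receptor or hand them over near it, and proteases release them by cutting the binding proteins. In islets the receptor is present on β cells, and insulin and insulin-like growth factor signalling is known for its part in β-cell mass and function.

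The promoters of 4 binding proteins are shown because their CpG content and chromatin differ in the sections below. Each holds 250 bases before and 50 after the RefSeq start on GRCm38.p6, 5′ to 3′ on the gene's strand, with CpG pairs in capitals. All other coordinates here are on mm9, the build named in the submitters' processing notes, and the start used in a section on mm9 may differ from the RefSeq start. Igfbp3, minus strand, chr11:7213874-7214173, has 37 CpGs and lay in H3K27me3 regions at both ages.
Igfbp3: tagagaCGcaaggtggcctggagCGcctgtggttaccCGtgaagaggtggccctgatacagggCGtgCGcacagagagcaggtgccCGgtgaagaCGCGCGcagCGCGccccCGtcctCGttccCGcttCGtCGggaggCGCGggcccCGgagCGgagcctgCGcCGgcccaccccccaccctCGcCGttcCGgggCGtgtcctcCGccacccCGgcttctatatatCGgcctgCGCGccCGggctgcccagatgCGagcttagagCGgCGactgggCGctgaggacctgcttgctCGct
Igfbp5, minus strand, chr1:72874816-72875115, has 10 CpGs and lay in an H3K27me3 region in young cells.
Igfbp5: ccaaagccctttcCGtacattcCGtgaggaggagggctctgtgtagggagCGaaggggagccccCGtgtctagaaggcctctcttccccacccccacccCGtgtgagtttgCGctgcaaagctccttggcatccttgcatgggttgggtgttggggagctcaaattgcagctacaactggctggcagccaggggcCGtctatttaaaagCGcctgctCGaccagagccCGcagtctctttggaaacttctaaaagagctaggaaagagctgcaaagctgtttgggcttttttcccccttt
Igfbp6, plus strand, chr15:102143936-102144235, has 8 CpGs and lay in H3K27me3 regions at both ages with intermediate DNA methylation.
Igfbp6: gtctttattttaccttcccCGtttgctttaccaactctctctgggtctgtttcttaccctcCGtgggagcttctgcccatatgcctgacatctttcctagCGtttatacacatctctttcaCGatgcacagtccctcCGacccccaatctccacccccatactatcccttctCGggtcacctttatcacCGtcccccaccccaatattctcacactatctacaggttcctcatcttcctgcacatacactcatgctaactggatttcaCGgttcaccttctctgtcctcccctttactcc
Igfbp7, minus strand, chr5:77407996-77408295, has 33 CpGs and lay in no H3K27me3 region.
Igfbp7: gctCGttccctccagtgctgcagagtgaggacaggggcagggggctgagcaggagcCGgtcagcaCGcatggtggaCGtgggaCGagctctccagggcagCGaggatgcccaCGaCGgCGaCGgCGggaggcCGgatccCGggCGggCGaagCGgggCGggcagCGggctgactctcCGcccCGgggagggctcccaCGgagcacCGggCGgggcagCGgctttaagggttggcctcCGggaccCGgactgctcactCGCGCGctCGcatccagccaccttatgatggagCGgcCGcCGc

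The promoters of the 8 genes differ widely in CpG content. The RefSeq window of Igf1r held 48 CpGs, more than 98.8% of the 32851 promoter windows in the table, and that of Igf1 held 6, against a median of 7 over all windows. Igfbp4 had 27 CpGs, and Igfbp2, with 2 annotated starts, had 18 and 14. The TATA-box letters TATAAA, sought on both strands, were in the windows of Igfbp4 and Igfbp6, against 13.6% of all windows. The GC-box letters GGGCGG, also sought on both strands, occurred 4 times in the Igfbp7 window, 3 times in 1 of the Igfbp2 windows and 2 times in the Igf1r window, and were in 35.7% of all windows.

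The old RNA libraries held 23559908 to 33562822 counts over genes and the young ones 6377619 and 12892123, so the young values carry more counting error. The young libraries are called here the shallower and the deeper one, since their columns carry no replicate number. The names of these columns differ only in a number before the letter K, and its part in the values was not tested. Across 15544 genes that passed a filter on low counts, the log2 levels of the old libraries had correlations of 0.959 to 0.967 with each other, and those of the young pair a correlation of 0.757. The young libraries therefore lay about as far from each other as from the old ones, whose correlations with them were 0.734 to 0.786. All libraries carried β-cell RNA: summed β-cell markers, insulin included, reached 333496 to 438962 counts scaled to library size (CPM) in old and 316328 and 257436 CPM in young libraries.

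RNA of Igf1, Igfbp3, Igfbp4 and Igfbp7 was lower in old than in young β cells, and that of the receptor Igf1r did not pass the test. Igfbp5 was the only one of the 6 tested genes whose levels lay above the young ones in every old library, and it missed the threshold. Of the 8 genes, 6 passed the filter on low counts, 4 of them fell and 0 rose by edgeR's quasi-likelihood test with Benjamini-Hochberg adjustment over all genes. Of all 15544 genes, 7.93% fell and 3.17% rose by the same rule at an adjusted p below 0.05. Levels are CPM scaled with TMM factors, changes are log2 of old over young with the standard error (SE) of the model, and p-values measure the spread between pools of mice. These levels are not per length and are compared only within a gene.

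Igf1, the ligand (chr10:87321801-87399792, plus strand), had 2.0, 2.55 and 0 CPM in the old libraries, against 51.2 and 50.5 CPM in the young ones (shallower library first). Both young values lay above every old one, which held by any margin for 24.5% of all tested genes. The third old library held no Igf1 read. The log2 change was -5.04 (SE 1.14, adjusted p = 0.0316 by edgeR), and the adjusted p was 0.105 without the 15-month library and 0.075 without the 16-month one. The table lists 5 Igf1 transcripts, 4 of which end at the same base and had nearly equal counts. The remaining one, NM_184052, ends upstream of them at 87378515 and had counts of 0, 0 and 0 in the old libraries, against 92 and 220 in the young ones. Against a floor of 3 counts over the old group it was at least 407-fold lower in old cells, while the long transcripts still had up to 84 old reads.

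Igf1r, the receptor tyrosine kinase (chr7:75097143-75378553, plus strand), had 355, 271 and 340 CPM in the old libraries, against 274 and 176 CPM in the young ones. Its lowest old value lay just under the shallower young one, so the ages overlapped. The log2 change was 0.52 (SE 0.27, adjusted p = 0.241 by edgeR). It stayed above 0 in every setting tried, at 0.24 to 0.88, with the upper value reached without the shallower young library.

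Igfbp3, in mammals the main carrier of Igf1 in blood (chr11:7106096-7113926, minus strand), had 22.2, 17.5 and 12.3 CPM in the old libraries, against 44.7 and 69.3 CPM in the young ones. All 3 old values lay under both young values, as for 24.5% of all tested genes. Its log2 change was -1.72 (SE 0.39, adjusted p = 0.0321 by edgeR), which is a 3.29-fold lower level in old cells.

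Igfbp4, a binding protein best known for holding factors back from the receptor (chr11:98902574-98913957, plus strand), had 0.603, 1.37 and 0.572 CPM in the old libraries, against 5.50 and 41.0 CPM in the young ones. The ratio between the young libraries was larger than in any of the other 3 genes that fell. The log2 change was -4.76 (SE 0.95, adjusted p = 0.0233 by edgeR). Without the deeper young library it was -2.67 (SE 1.26, adjusted p = 0.13), so the size of the fall rests on that library.

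Igfbp7, a low-affinity member of the family that also binds insulin (chr5:77778265-77837070, minus strand), had 52.8, 62.5 and 62.5 CPM in the old libraries, against 127 and 234 CPM in the young ones. The old values were tight. All of them lay under the young ones, as for 24.5% of all tested genes. Its log2 change was -1.61 (SE 0.30, adjusted p = 0.0195 by edgeR), a 3.04-fold lower level in old cells. Its 2 annotated transcripts had nearly the same counts, for example 1402 and 1394 in the first old library.

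The 4 falls did not pass the test once an old library was taken out, except that of Igf1. Without the 15- or the 16-month library 0 of the 4 genes were called, and without the 17-month library only Igf1 was, with adjusted p-values of 0.0592 to 0.105 for the calls lost. All 4 were called by DESeq2, which called 18.1% of all genes lower in old, and by edgeR without the filter, which called 7.99%. Without the deeper young library 3 were called, in a setting that called 18.2% of all genes lower. Without 1 old library the log2 changes ran between -1.55 and -1.67 for Igfbp7 and between -1.51 and -1.95 for Igfbp3. They ran between -4.51 and -5.31 for Igfbp4 and between -4.47 and -5.67 for Igf1, the last without the 16-month library.

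Igfbp5, a binding protein that associates with extracellular matrix (chr1:72904639-72921439, minus strand), had 534, 431 and 608 CPM in the old libraries, against 174 and 337 CPM in the young ones. Every old library lay above both young ones, as for 24.4% of all tested genes in the same direction. The log2 change was 1.04 (SE 0.32, adjusted p = 0.0752 by edgeR). DESeq2 gave an adjusted p of 0.0206, with 7.21% of all genes higher in old by that tool, and edgeR without the filter gave 0.0356, with 3.94% of all genes higher in old. Without the deeper young library the log2 change was 1.6 and the adjusted p 0.00472, in a setting that called 13.9% of all genes higher in old. Without the shallower young library the log2 change was 0.64 (adjusted p = 0.132), and without 1 old library the adjusted p was 0.124 to 0.202, so Igfbp5 was called in 3 of 10 settings.

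Igfbp2 and Igfbp6 were hardly detected in these cells and were not tested. Igfbp2, on chr1 next to Igfbp5 and tail to tail with it, had counts of 0, 0 and 0 in the old libraries, against 1 and 6 in the young ones. Igfbp6, which prefers the second ligand Igf2, had 0, 0 and 0 in the old libraries, against 0 and 32 in the young ones, so its reads came from the deeper young library alone. A count of 0 over the old group allows a level of up to 0.0373 CPM, for counting error only.

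**Figure D1:**
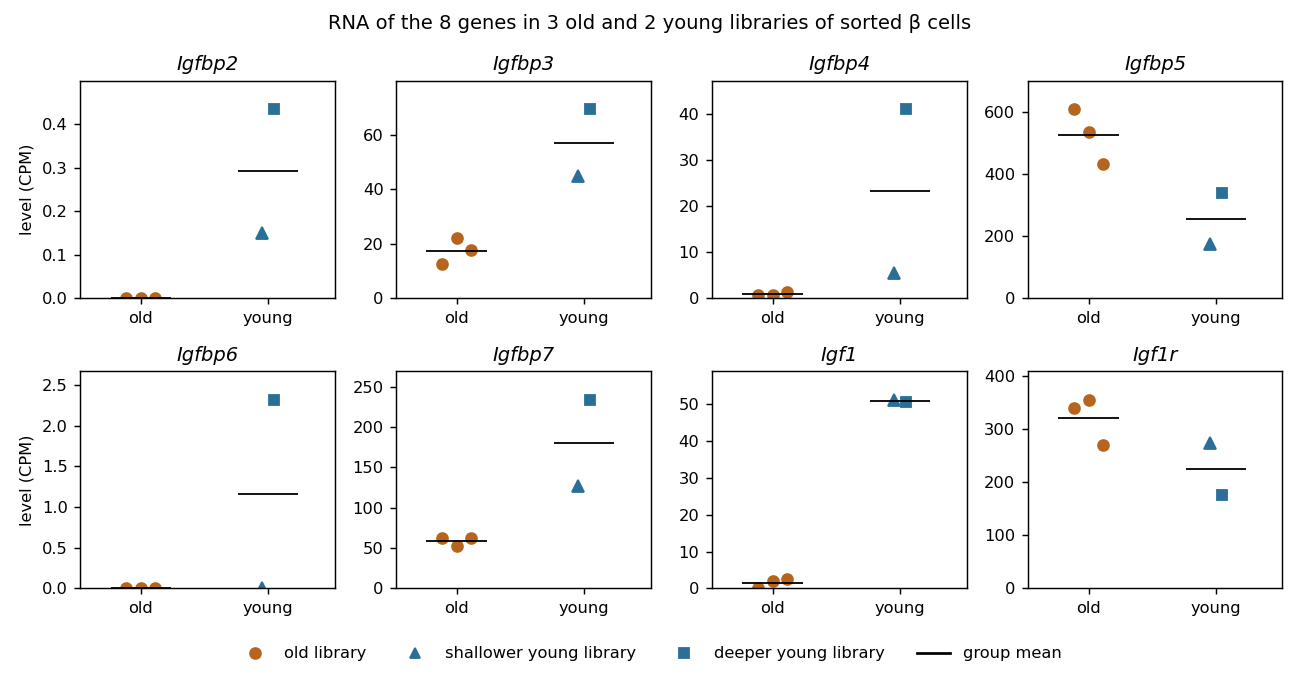
RNA level in CPM (y axes, 1 panel per gene, each starting at 0) of the 8 genes in the 3 old (left, circles) and 2 young libraries (right, triangle for the shallower and square for the deeper), with a line at each group mean. Igf1 sat at 0 to 2.55 CPM in old and near 51 CPM in both young libraries, the young points of Igfbp4 lay far apart, and all old points of Igfbp5 lay above the young ones.

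**Figure D2:**
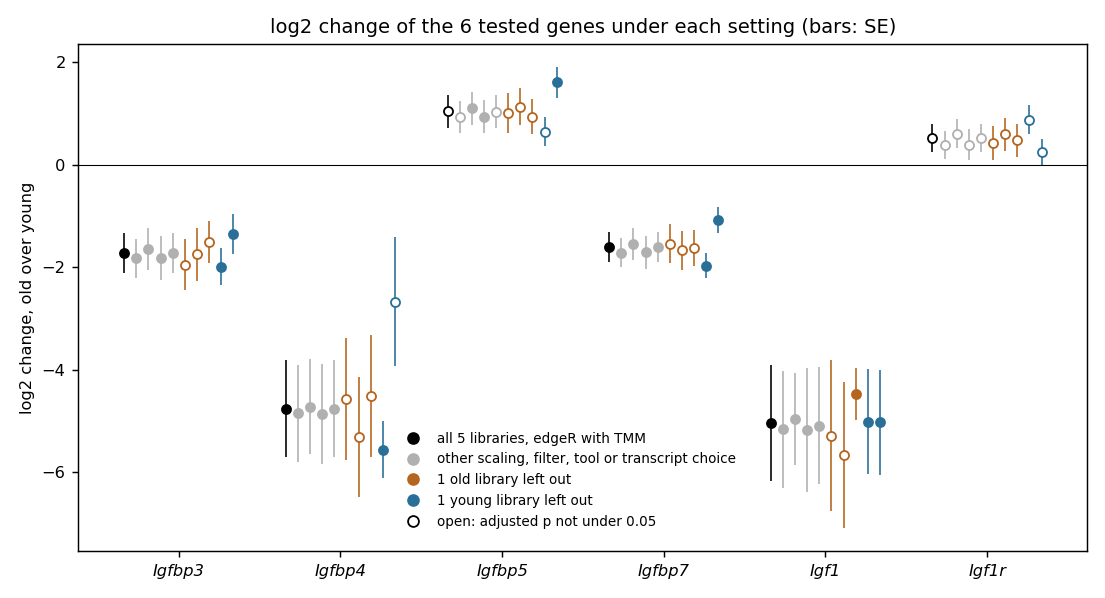
Log2 change of old over young (y axis) with its SE (bars) for the 6 tested genes under 10 settings (points, left to right: all libraries, other processing, 1 old library out, 1 young library out), filled where the adjusted p was below 0.05. The sign was the same in all settings for each gene, and the open points of the 4 lower genes are those without an old library (Igf1 without the 17-month library is filled), plus Igfbp4 without the deeper young library.

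Of the β-cell markers 3 of 12 rose in old libraries and 0 fell, with a median log2 change of 0.86, and their part in the values of Igfbp5 and of the pathway genes that were higher in old was not tested. Markers of other cell types moved in the same direction as the 4 lower genes, where 7.93% of all tested genes fell and 3.17% rose. Of the endothelial markers 13 of 15 fell, with a summed level of 74.9 to 110 CPM in old and 644 and 1355 CPM in young libraries, by edgeR as above. All 18 stellate and fibroblast markers fell, with a sum of 31.2 to 44.8 CPM in old and 744 and 5959 CPM in young libraries. Of the pericyte and smooth muscle markers 7 of 9 fell, with 8.89 to 17.9 CPM in old and 316 and 989 CPM in young libraries, and of the macrophage markers 3 of 10, with 24.5 to 36.6 CPM in old and 182 and 272 CPM in young libraries. Like Igfbp4 and Igfbp6, the stromal sum was much higher in the deeper than in the shallower young library, whereas Igf1 had 50.5 CPM in the deeper and 51.2 CPM in the shallower one.

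Acinar markers fell for 13 of 15 tested genes (105 to 150 CPM in old, 1785 and 2598 CPM in young), duct markers for 4 of 11 (406 to 585 CPM in old, 927 and 787 CPM in young) and cell division genes for 5 of 10. Of the δ and PP markers all 7 fell (239 to 487 CPM in old, 3243 and 9788 CPM in young), and of the α markers 2 of 8 (913 to 1846 CPM in old, 2027 and 31773 CPM in young). None of the endothelial, stromal, mural or macrophage markers was at 0 in all old libraries, and Ptf1a of the acinar list was. Their part in the falls of Igf1, Igfbp3, Igfbp4 and Igfbp7 was not tested, and in bulk libraries fewer cells of a type and less RNA per cell cannot be told apart.

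The genes most like each of the 4 were sought among 11217 genes with a mean of at least 5 CPM, by Euclidean distance between centred log2 levels over the 5 libraries. Nearest to Igfbp3 were Man2a1, Cat and Atad2, at distances of 0.20 to 0.31. Igfbp7 was followed by Nhsl2, Atxn7l3 and Ldb2 at 0.10 to 0.19. For Igfbp4 the nearest were Fbln5 and Ltbp4, both of the extracellular matrix, and Mustn1, at 0.56 to 0.76. Igf1 had Tns1, Tgfb1i1 and Slco2b1 at 0.76 to 0.99. All 3 had their lowest level in the 17-month library, as Igf1 did, but the choice by levels over these same libraries favours such a match.

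The rest of the pathway was read from lists chosen by function. Over all tested genes, 7.93% were called lower and 3.17% higher in old by edgeR. Of the other ligands, receptors and carriers, 0 of 5 tested genes were called, with a median log2 change of 0.06 against -0.05 over all tested genes. Igf2, the ligand encoded beside the insulin gene Ins2, had 7.38, 4.19 and 6.82 CPM in the old libraries, against 1.78 and 67.0 CPM in the young ones, and its young values lay on either side of the old ones (log2 change -2.49, SE 1.07, adjusted p = 0.162 by edgeR). The Igf2-clearing receptor Igf2r and the insulin receptor Insr had log2 changes of 0.37 and 0.06, with adjusted p-values of 0.419 and 0.904. Igfbp1 had reads only in the shallower young library and was not tested.

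Of the proteases of binding proteins and their inhibitors, 4 of 11 tested genes fell and 0 rose, with a median log2 change of -3.52. Of all tested genes 7.93% fell and 3.17% rose. Mmp14, a membrane-bound matrix metalloprotease, had 0.527, 0.121 and 1.34 CPM in the old libraries, against 16.3 and 41.1 CPM in the young ones (log2 change -5.46, SE 0.98, adjusted p = 0.0169). Adamts1, a secreted metalloprotease, fell by 4.36 on the log2 scale, the tissue kallikrein Klk1 by 4.52 and Mmp2, which also stands in the stromal marker list, by 6.01. The pappalysin Pappa, which cuts Igfbp4, had 9.79, 11.3 and 3.05 CPM in the old libraries, against 20.2 and 20.5 CPM in the young ones, and was not called (log2 change -1.33, adjusted p = 0.199). Its relative Pappa2 had 5.99, 20.1 and 12.4 CPM in the old libraries, against 7.43 and 286 CPM in the young ones (adjusted p = 0.0776).

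Of 8 tested proteins with an IGFBP-like domain, 3 fell and 0 rose, against 7.93% and 3.17% of all tested genes, with a median log2 change of -2.85. They were the matricellular proteins Cyr61, Ctgf and Wisp1. Cyr61 had 2.22, 0.0911 and 0.334 CPM in the old libraries, against 19.8 and 88.4 CPM in the young ones. Ctgf had 0.942, 0.121 and 0.381 CPM in the old libraries, against 3.12 and 57.9 CPM in the young ones. Wisp1 had no read in any old library and was at least 334-fold lower there, taken against 3 counts over the group. The marker sums of other cell types given above were also lower in old libraries, and their part in these falls was not tested.

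Inside the cell few genes of the pathway passed the test. Of 17 receptor adaptors and brakes 0 were called, with a median log2 change of -0.45. Irs2, the receptor substrate known for its role in β-cell survival, had 89.2, 88.2 and 209 CPM in the old libraries, against 396 and 290 CPM in the young ones. Its old values all lay under the young ones, as for 24.5% of all tested genes. It missed the threshold (log2 change -1.41, SE 0.40, adjusted p = 0.0585 by edgeR). Irs1 had a log2 change of -0.51 (adjusted p = 0.389). In the phosphatidylinositol 3-kinase, Akt and mTOR arm 2 of 25 genes rose and 0 fell, with a median log2 change of 0.10. Of all tested genes 3.17% rose and 7.93% fell. Pik3r3, a regulatory subunit of the lipid kinase, had 96.9, 77.2 and 62.1 CPM in the old libraries, against 23.2 and 35.8 CPM in the young ones (log2 change 1.41, adjusted p = 0.0398 by edgeR). Akt2, at a log2 change of 0.41, was not called (adjusted p = 0.609).

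CpG methylation within 1 kb of the 8 starts differed by at most 4.06 percentage points between the old and the young library, while within 500 bases it differed by -34.5 points at Igfbp5. Within 1 kb of the start 0 of 8 were called at an adjusted p below 0.05 and a difference of at least 10 percentage points, by Fisher's exact test on summed calls, while 4.56% of 21776 promoters were called lower and 3.89% higher in old. Over all CpGs with a coverage of at least 5 in both libraries, 71.8% of calls were methylated in old and 75.3% in young. These sums weigh each CpG by its coverage, and the highest coverage of a CpG was 20596265 in old and 57348820 in young. Over the tested 1 kb windows of the genome the median was 85.3% in old and 84.9% in young. The median difference of these windows was -0.05 points, so the gap between the sums is not read as a general loss in old. With 1 library per age, Fisher's exact test compares the libraries and not the ages, and the exact 95% binomial intervals cover counting error only. Igf1r had 4.25% methylated calls in old and 4.06% in young, with 10422 and 11915 calls over 235 CpGs. Igfbp3 had 4.94% in old and 4.83% in young, Igfbp7 had 5.50% in old and 6.07% in young, and Igfbp5 had 6.97% in old and 8.30% in young. These promoters lay under the medians of all promoters, 11.96% in old and 12.4% in young.

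Igfbp4 had 12.5% methylated calls in old and 11.9% in young. The start of the Igf1 transcript with most reads had 20.9% (interval 16.9 to 25.3%) in old and 24.6% (20.9 to 28.7%) in young, over 22 CpGs. Igfbp6 had the highest level of the 8, at 51.6% in old and 53.2% in young. Igfbp2 differed by 4.06 points, with 10.7% (9.83 to 11.6%) in old and 6.64% (5.97 to 7.35%) in young (adjusted p = 5.26e-12 by Fisher's exact test), a difference under the 10 points set. The 4 genes whose RNA fell thus had old minus young differences of -3.77 to 0.61 points at their starts.

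**Figure D3:**
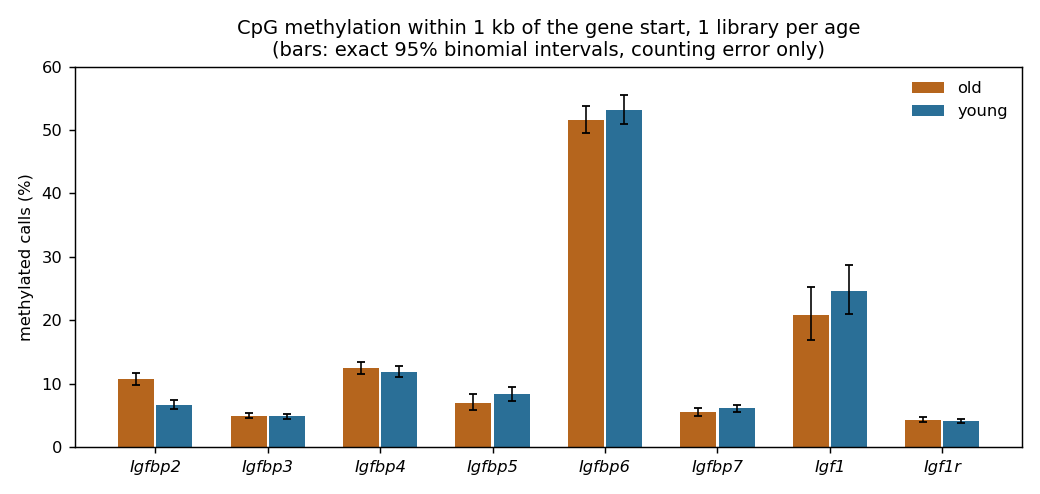
Methylated calls in percent (y axis, from 0) over CpGs within 1 kb of each gene start in the old (left bar) and the young library (right bar), with exact 95% binomial intervals for counting error. The bars of each pair stand close together, near 5% for Igfbp3, Igfbp7 and Igf1r and above 50% for Igfbp6.

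A narrower window gave another result at Igfbp5. Within 500 bases of its start 4.45% of 472 calls were methylated in old and 39.0% of 459 in young, an adjusted p of 2.11e-39 by Fisher's exact test, where 5.43% of all promoters were called lower and 4.47% higher in old. The difference came mostly from 9 CpGs in 73 bases, chr1:72921155-72921227, 212 to 284 bases downstream of the start. None of the calls there was methylated in old, at a coverage of 15 to 23, and all were in young, at a coverage of 16 to 18. Neighbouring CpGs share reads, so this p is too small, and the tables give calls rather than DNA fragments, so the number of molecules behind them is unknown.

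The stretch was picked out after its values were seen. Without it 7.12% of calls were methylated in old and 9.39% in young, with p = 0.376 by Fisher's exact test. The CpGs next to it, at 195 and 297 bases, had only 2 young calls each. Beyond it, at 448 to 501 bases downstream, young calls were unmethylated at all CpGs listed. Runs of consecutive CpGs were sought among those with a coverage of at least 10 in both libraries. In the whole genome the stretch was the only run of at least 4 with no call methylated in old and all in young. The reverse occurred 0 times. With limits of at most 10% in old and at least 90% in young there were 4 such runs, and 1 gene start of 22509 had one within 1 kb.

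**Figure D4:**
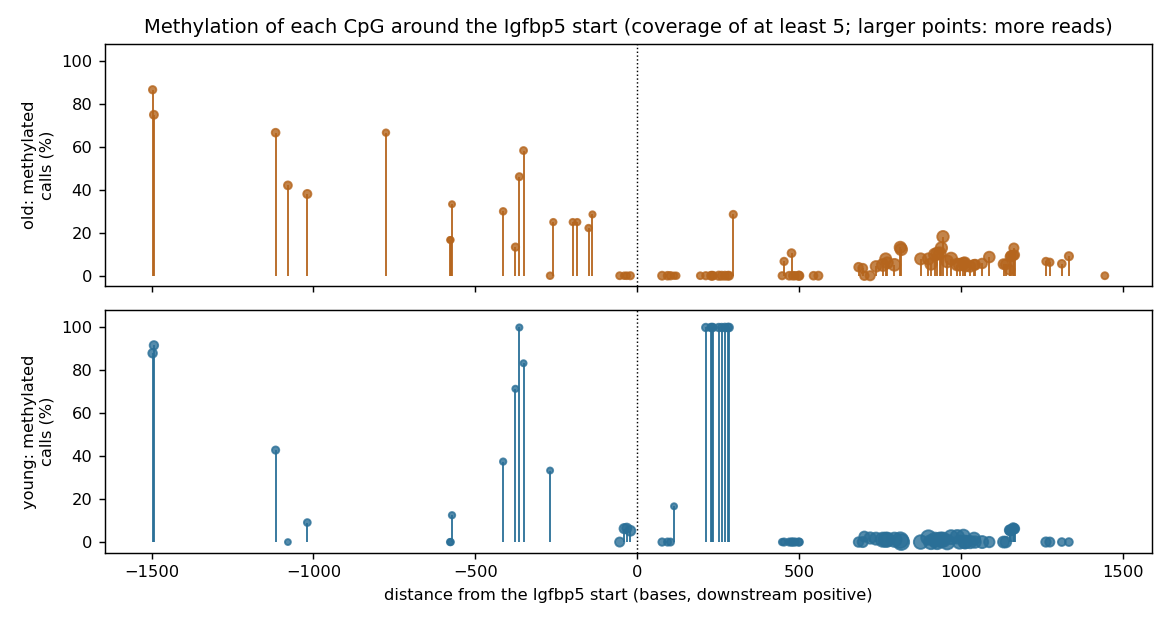
Methylated calls in percent (y axes) of each CpG with a coverage of at least 5 around the Igfbp5 start in the old (upper) and young library (lower), by distance from the start in bases, with larger points for more reads. The block between 212 and 284 bases stands at 0% in old and at 100% in young. Further downstream, from 684 to 996 bases, the CpGs were higher in old except those at 702 and 720 bases. The CpG at 945 bases had 18.2% in old and 1.08% in young, and the one at 702 bases 0% in old and 2.56% in young.

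H3K27me3, the mark laid down by Polycomb at silent or poised genes, covered most of these starts at both ages. In old cells the starts of Igfbp2, Igfbp3, Igfbp4, Igfbp6 and Igf1 lay in H3K27me3 regions, 5 of 8 against 39.3% of all gene starts. In young cells the same 5 and Igfbp5 did, 6 of 8 against 25.4% of all. The starts of Igfbp7 and Igf1r lay in no region at either age. The old list covered 649 Mb and the young one 452 Mb, so more of the genome lay in a region in old, and there was 1 list per age with no replicate list. The design text names 2 H3K27me3 replicas of old mice, while 1 old sample was held.

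The regions over the starts differed in extent. The old region over Igfbp3 ran over chr11:7029001-7151000, against chr11:7086001-7123000 in young. That over the start of Igfbp2 ran over chr1:72858001-72910000 in old, reaching into the far end of Igfbp5, against chr1:72861001-72884000 in young. Igf1 had chr10:87298001-87353000 in old and chr10:87314001-87348000 in young, and the young region stood at percentile 99.6 of its list by the authors' score. Igfbp4 was alike at both ages, with chr11:98898001-98921000 in old and chr11:98897001-98924000 in young. Igfbp5 was the exception: no old region covered its start, while the young list held chr1:72915001-72928000, at percentile 94.3 of its list.

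Of the 19 old H3K27me3 regions within 50 kb of the 8 starts, 68.4% overlapped a young one, against 49.8% of all old regions. Of the 18 young ones 94.4% overlapped an old one, against 70.5% of all young regions, and the one without overlap was that at the Igfbp5 start. None of these regions was called for methylation, where 2.55% of all old regions were called lower and 2.67% higher in old, and 3.41% and 3.11% of all young regions. At the Igfbp5 start the methylation of the young region was 26.4% in old and 29.0% in young.

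**Figure D5:**
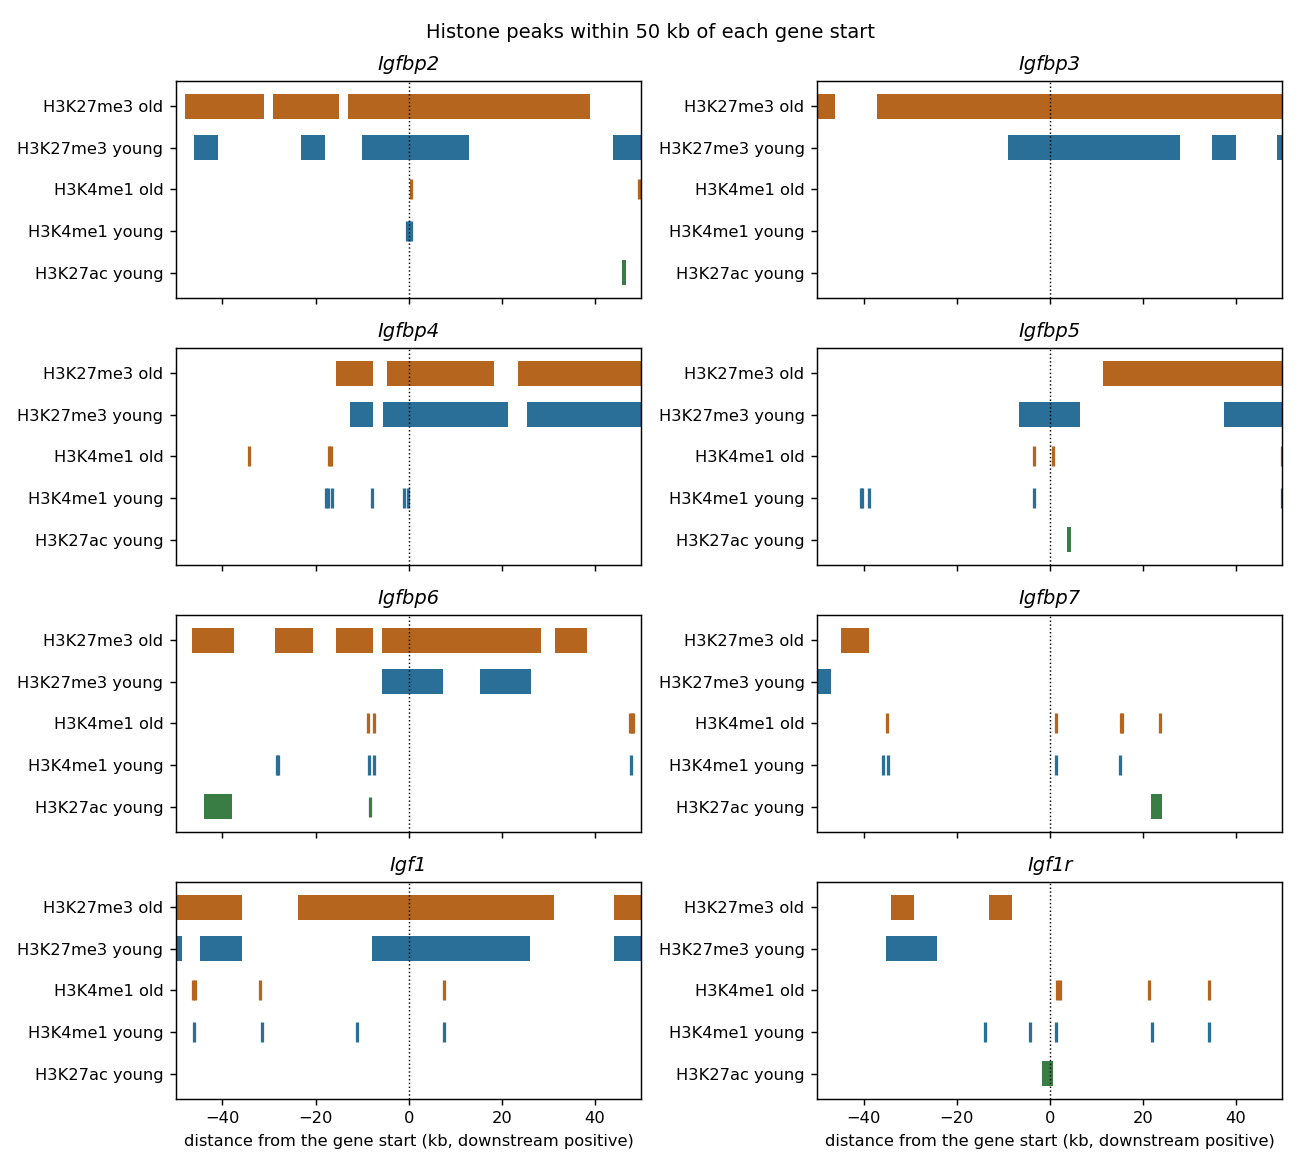
Histone regions within 50 kb of the 8 gene starts (x axis, kb from the start, downstream positive, dotted line at the start), with H3K27me3 of old and young cells, H3K4me1 of old and young cells and H3K27ac of young cells from top to bottom in each panel. H3K27me3 spans the starts of Igfbp2, Igfbp3, Igfbp4, Igfbp6 and Igf1 at both ages and that of Igfbp5 in young only, and the panels of Igfbp7 and Igf1r have none at the start.

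H3K27ac, a mark of active promoters and enhancers measured in young cells alone, covered 1 of the 8 starts, that of Igf1r, against 28.0% of all starts. The Igf1r region, chr7:75095364-75097729, had 3.11% methylated calls in old and 4.14% in young. Of all starts 60.9% had an H3K27ac region within 50 kb, at a mean of 1.58 per start, and Igfbp3, Igfbp4 and Igf1 had 0. Within 50 kb of the 8 starts there were 5 such regions. One lay in Igfbp5, 3638 bases downstream of its start, with 6.93% methylated calls in old and 9.47% in young. Near Igfbp6 were 2 others, upstream of it and close to the starts of Spryd3 and Tenc1.

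The remaining H3K27ac region lay inside Igfbp7, 21842 bases downstream of the start at chr5:77812913-77815228. Its methylation was 30.3% (interval 26.2 to 34.6%) of 485 calls in old and 42.6% (38.7 to 46.6%) of 622 calls in young. This was the only one of the 5 called (adjusted p = 8.9e-05 by Fisher's exact test), where 14.3% of all H3K27ac regions were called lower and 3.45% higher in old. RNA of Igfbp7 was lower in old cells.

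H3K4me1, a mark of enhancers and promoter flanks, was called as 24 old and 31 young peaks within 50 kb of the 8 starts, of which 6 in each list overlapped the other age. That is 25% of the old ones, against 35.6% of all old peaks, and 19.4% of the young ones, against 16.7% of all young peaks. The old list held 36207 peaks and the young one 77291 in the whole genome. Over all gene starts the mean number within 50 kb was 2.92 in old and 5.44 in young. Igfbp3 had 0 peaks within 50 kb at both ages, where 76.3% of all starts had one in old and 86.1% in young. The young Igfbp4 start had peaks 114 and 976 bases upstream, which had no old counterpart. The old list placed a peak 711 bases downstream of the Igfbp5 start, at percentile 98.0 of its list, with 7.13% methylated calls in old and 0.989% in young.

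Methylation in these peaks differed at a few places. Of 13 tested old peaks 1 was called lower and 2 higher in old, against 16.6% and 10.2% of all old peaks, and of 15 tested young peaks 3 were lower and 2 higher, against 17.1% and 9.65% of all young peaks, so no share of these few peaks is read as particular to the 8 genes. Within Igf1r, a young peak 1331 bases downstream of the start, chr7:75098474-75098600, had 3.26% methylated calls in old and 31.8% in young (adjusted p = 7.43e-05). An old peak just past it, chr7:75098694-75098814, had 10.1% in old and 0% of 192 calls in young, with an exact upper bound of 1.90%. The strongest old peak there by the authors' score, 2084 bases downstream and at percentile 99.4 of its list, had 0.866% in old and 0% of 80 calls in young (exact upper bound 4.51%), and was not called.

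Upstream of Igfbp5 a young peak at chr1:72924673-72924799 had 2.0% (interval 0.0506 to 10.6%) methylated calls in old and 38.3% (26.1 to 51.8%) in young, over 3 CpGs. Upstream of Igfbp7 a young peak at chr5:77871752-77871878 went the other way, with 54.3% in old and 21.8% in young (adjusted p = 5.74e-07). Near Igfbp4 the called peaks lay 16616 and 17593 bases upstream, on either side of the Top2a start. Near Igfbp6 a young peak 28318 bases upstream had 71.4% in old and 49.3% in young, and an old peak 7420 bases upstream had 8.16% in old and 28.9% in young. Igf1 had no called peak.

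Fixed 1 kb windows near the 8 genes were called at rates close to those elsewhere. Of 698 windows within 50 kb of a start 7.88% were lower and 7.59% higher in old, against 8.55% and 8.61% of 1677101 windows in the genome. In the window with the Igfbp5 start, chr1:72921001-72922000, 5.19% of calls were methylated in old and 49.3% in young, and it held the stretch of 9 CpGs. Upstream of Igf1, chr10:87317001-87318000 had 42.9% (interval 36.4 to 49.7%) in old and 16.7% (11.8 to 22.6%) in young, 4300 bases before the start (adjusted p = 3.79e-07 by Fisher's exact test). Inside Igfbp4, chr11:98906001-98907000 had 87.9% in old and 58.6% in young (adjusted p = 1.49e-09). Both genes had less RNA in old cells, and both also had windows called lower in old. Of 84 tested windows near Igf1, 8 were lower and 4 higher in old. Near Igfbp4 6 of 97 were lower and 7 higher, and near Igfbp3 8 of 94 were lower and 9 higher. Near Igfbp3 the window chr11:7137001-7138000, 23575 bases upstream, had 43.6% in old and 73.8% in young (adjusted p = 0.00227), so called windows near the genes that fell went in both directions.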

How the data were processed

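Gene expression, histone modifications and CpG methylation were profiled in sorted mouse β cells. The authors deposited whole-number read counts per RefSeq transcript. The submitters' processing notes list the tools STAR, Bowtie 0.12.7, CASAVA 1.8.2, HOMER and edgeR, without their roles, and the build mm9. How strand was treated in counting is not stated, and a deposited table with a signal of unknown scale served for transcript positions only. The H3K4me1 and H3K27ac lists come from HOMER run on 1 library per list, per the file headers, with a deposited score, a fold over input and p-values. The deposited H3K27me3 lists carry no header that would name a caller, and their score only ranked regions. The deposited CpG tables give the methylated fraction and the coverage, from which calls were recovered.

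The transcript with most counts stood for a gene. Libraries were compared with edgeR 4.0.16 in R 4.3.3 (TMM, filterByExpr, quasi-likelihood, two-sided), and DESeq2 1.42.0 was an alternative. For each window or peak, calls over CpGs with a coverage of at least 5 in both libraries (at least 3 CpGs) were compared with Fisher's exact test, two-sided, adjusted over all windows of its kind. Windows with over 300000 calls were not tested. Median coverage of a CpG was 18 in old and 16 in young. Scripts were tested on simulated data. Named were all 8 genes, up to 4 called genes of a pathway list, Igf2, Igf2r, Insr, Irs1, Irs2 and Akt2, the 3 nearest genes of each called gene, and up to 2 called peaks and windows per gene; other peaks, windows, Pappa, Pappa2 and Igfbp1 were chosen after their values were seen. A called gene of the pathway lists is not reported here. The genes and lists were chosen with earlier results of these data known. Alternatives were other scalings, no filter, the mean over transcripts, each library left out, other promoter windows, coverages, distances and thresholds.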

Additional observations from a re-analysis of the deposited data

How the results depend on the processing

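Leaving out 1 library at a time gave 0 to 4 of the 8 genes called lower and 0 to 1 called higher in old RNA, against 4 and 0 with all 5. The 1 called higher was Igfbp5, also with no filter and by DESeq2. Over all genes 1232 were lower and 492 higher with all libraries, and the counts were 2969 and 1185 by DESeq2, 823 higher with no filter, 273 to 3099 lower and 40 to 2368 higher with 1 library out. Without old library 1, 2 or 3 there were 291, 391 or 273 lower and 40, 50 or 95 higher. Without the shallower young library there were 1947 and 1296, and without the deeper one 3099 and 2368. The median log2 change over all genes was -0.05, and -0.17 with RLE factors, -0.27 with no filter and -0.52 by DESeq2. The 4 lower genes stayed below these medians, and Igfbp5 and Igf1r above them. No paired analysis was possible, since the old and young libraries came from separate pools of mice of different ages.

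At 20 points, 15 windows near the genes were lower and 10 higher (55 and 53 at 10 points), 0 H3K27ac regions were lower (1), and 1 old H3K4me1 peak was higher (2), as at a coverage of 10. Within 500 bases 1 promoter was called lower (0 within 1 kb), with a difference of -34.5 points for Igfbp5, and -2.27 without the 9 CpGs, a setting chosen after seeing the data. Promoter differences of uncalled genes changed sign for Igfbp7 (2.0 points within 2 kb), Igf1 (4.94 within 500 bases) and Igf1r (-1.17 within 500 bases, -0.31 within 2 kb). Within 20 kb there were 3 H3K27ac, 9 old and 9 young H3K27me3 and 13 old and 19 young H3K4me1 peaks. Among peaks at or above the median score of each list there were 1 H3K27ac, 11 old H3K27me3 and 14 old and 18 young H3K4me1 peaks, and 0 starts in H3K27ac and 0 in young H3K4me1 peaks. Counting only an overlap of 50% of the narrower peak left 3 shared H3K4me1 peaks in each list. The cause of these shifts was not tested. The counts of starts in H3K27me3 were the same at or above the median score. With 2 young libraries and 1 library per age elsewhere, the depth of the young RNA and the single libraries limit all comparisons.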
